A study of Mus musculus with 12 samples.

Results

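The retinas of adult Cast/EiJ and C57BL/6J mice, the inbred parents of a reciprocal hybrid cross, were compared to find which retinal cell classes, pathways and gene families differed in RNA level between the parental strains. Each strain was represented by 3 parental (F0) libraries, called R1, R2 and R3, each made from polyadenylated RNA of 6 to 8 pooled retinas, with all mice male, aged 8 weeks and without treatment or engineered allele. C57BL/6J is the common laboratory strain, and Cast/EiJ is an inbred strain derived from wild Mus musculus castaneus. The 6 libraries of F1 hybrids between the strains served only to describe the ratio between alleles. Members were the autosomal protein-coding genes with at least 10 count equivalents in 3 or more of the 6 F0 libraries, which gave 13310 genes of 21422 autosomal protein-coding genes and of 37991 genes of any kind in the deposited table. A count equivalent is a read count estimated by the expression program MMSEQ and normalised between libraries, so that it can be set side by side between libraries for 1 gene but not between genes of different length. Because each library pooled several retinas, the spread between libraries of a strain was the spread between pools.

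The mammalian retina is a layered neural tissue in which rods, by far the most numerous cells in the mouse, and the less numerous cones turn light into a change of membrane potential. Bipolar cells carry this signal to the ganglion cells, whose axons form the optic nerve, while horizontal and amacrine cells shape it sideways. Müller glia span the tissue, astrocytes and blood vessels line its inner surface, and microglia are its resident immune cells. In RNA from whole tissue, fewer cells of a type and less RNA per cell cannot be told apart.

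Between 8158534 and 11888819 read pairs hit a single gene per F0 library (8158534 to 10078766 in Cast/EiJ and 10363519 to 11888819 in C57BL/6J). Over all members, the log values of 2 libraries of 1 strain correlated at Pearson's r = 0.982 to 0.989 and those of different strains at 0.911 to 0.918, as a description across genes, which are not replicates. Mitochondrially encoded genes, which are no members, took 4.70% to 6.76% of the single-gene reads in C57BL/6J and 1.57% to 2.24% in Cast/EiJ. The predicted gene Gm13340 took 0.294% to 0.337% of these reads in Cast/EiJ and at most 0.000127% in C57BL/6J, and the median gene had 0.868 single-gene reads per count equivalent in C57BL/6J and 0.691 in Cast/EiJ. Gnat1, the alpha subunit of rod transducin, had a mean of 5084 FPKM in C57BL/6J and 4532 FPKM in Cast/EiJ, whereas Rpe65 of the retinal pigment epithelium had 0.559 and 0.378 FPKM.

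Of the 13310 members, 4322 (32.5%) passed an adjusted p of 0.05 in limma, 2230 of them higher (16.8%) and 2092 lower (15.7%) in Cast/EiJ. The typical change was small, since the median fold of these genes was 1.51 in either direction and the median log2 fold change of all members was 0.04. Among genes that differed at least 2-fold, however, 744 were lower and 442 higher in Cast/EiJ, and at least 4-fold differences counted 241 lower and 182 higher genes. The members were divided into 4 equal groups by mean count equivalents, which also depend on gene length. The share that passed was alike from the lowest to the highest group (32.6%, 31.4%, 32.5% and 33.4%). Its make-up was not: lower genes fell from 20.4% of the lowest group to 11.7% of the highest, and higher genes went from 12.2% to 21.7%. The libraries of the strains did not overlap in 6260 members (47%). In edgeR on the reads that hit a single gene, 4030 of the 4322 genes (93.2%) passed in the same direction, 3 passed in the opposite direction and 106 had too few such reads to be tested. That test called 36.5% of 12904 members, 17.1% higher and 19.5% lower. In what follows, values are count equivalents, a log2 fold change is Cast/EiJ minus C57BL/6J on the log2(count equivalents + 1) scale, and an adjusted p is limma's with Benjamini-Hochberg adjustment over 14452 autosomal genes.

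**Figure D1:**
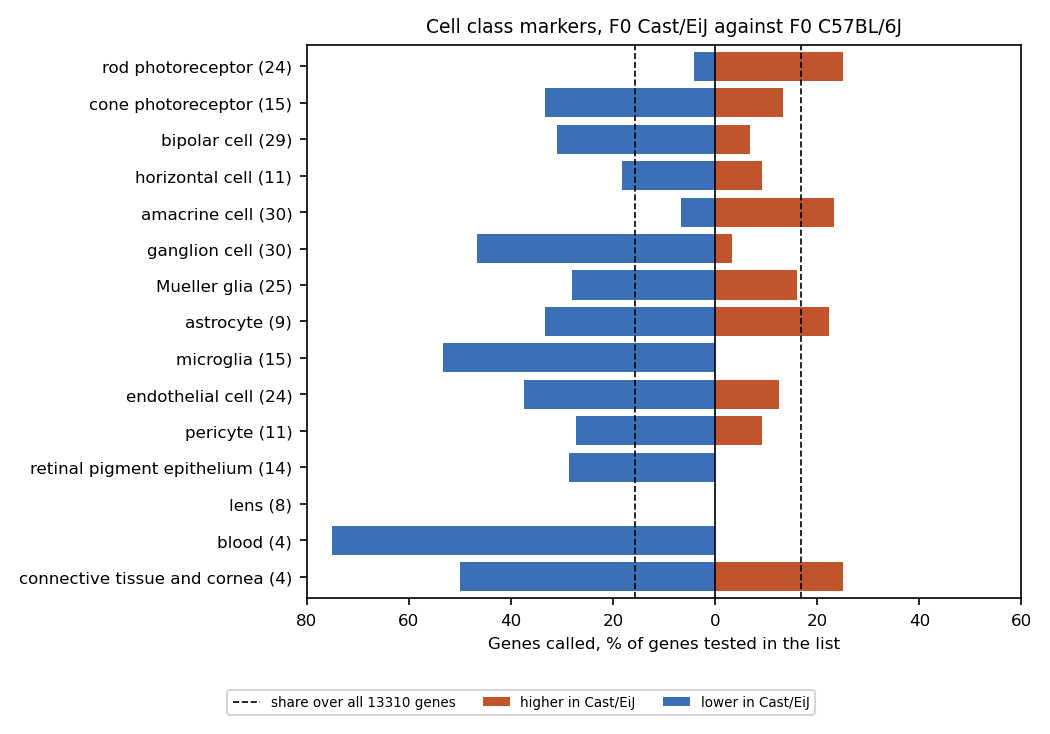
Shares of the tested genes of 15 lists, 12 of retinal and neighbouring cell classes and others of lens, blood and connective tissue, that were higher (bars to the right) or lower (bars to the left) in Cast/EiJ than in C57BL/6J, in percent, with dashed lines at the shares of all 13310 members (16.8% higher and 15.7% lower). Microglial, ganglion cell and endothelial lists reach far to the left, with 8 of 15, 14 of 30 and 9 of 24 genes lower, while rod and amacrine lists reach further to the right than to the left.

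Of the 24 rod genes tested, 6 were higher and 1 lower in Cast/EiJ, beside 32.5% of all members that passed (on single-gene reads, 6 higher and 4 lower), with a median log2 fold change of 0.04 against 0.04 over all members. Gnat1 had 201000, 213000 and 208000 count equivalents in the C57BL/6J libraries and 175000, 184000 and 196000 in the Cast/EiJ libraries (log2 fold change -0.17 ± 0.11 (SE), adjusted p = 0.28), and for Nrl, the transcription factor that sets the rod fate, the log2 fold change was -0.07, adjusted p = 0.66. Neither passed the test. Only 2 rod genes changed 2-fold or more. Sag, the rod arrestin that binds the activated visual pigment and ends its signal (chr1:89700255-89741733, NCBI37/mm9), had 53600, 48300 and 52100 count equivalents in the C57BL/6J libraries and 110000, 119000 and 119000 in the Cast/EiJ libraries. Every Cast/EiJ library was more than 2-fold above every C57BL/6J library (log2 fold change 1.18 ± 0.09 (SE), adjusted p = 2.3e-05). Gngt1, the gamma subunit of rod transducin, had 8110, 7830 and 10300 count equivalents in the C57BL/6J libraries and 16600, 18700 and 18400 in the Cast/EiJ libraries. It was 2.06-fold higher in Cast/EiJ (log2 fold change 1.04 ± 0.11 (SE), adjusted p = 0.00013), with no overlap. Smaller increases passed for Rcvrn, which encodes the calcium sensor recoverin (0.37, adjusted p = 0.042), for the channel subunit gene Cngb1 (0.36, adjusted p = 0.0034) and for Nr2e3, a repressor of cone genes in rods (0.35, adjusted p = 0.0094). The 1 lower rod gene was Pdc, whose product phosducin holds transducin subunits (-0.23, adjusted p = 0.038). The call was lost for Rcvrn without C57BL/6J R1 or R2 or Cast/EiJ R2 or R3 (adjusted p = 0.072 to 0.14) and Pdc without any 1 library but C57BL/6J R1 (adjusted p = 0.06 to 0.12).

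Cone genes moved apart from each other. Of 15 tested, 2 were higher and 5 lower, with a median of -0.17. Cnga3, the main subunit of the cone channel gated by cyclic GMP, had 224, 264 and 241 count equivalents in the C57BL/6J libraries and 110, 97.7 and 105 in the Cast/EiJ libraries. It fell to less than 0.5 of the C57BL/6J level in each Cast/EiJ library (log2 fold change -1.21 ± 0.12 (SE), adjusted p = 0.0001). Its partner subunit Cngb3 went the other way, with 288, 268 and 276 in C57BL/6J and 421, 374 and 397 in Cast/EiJ (log2 fold change 0.52 ± 0.09 (SE), adjusted p = 0.0028). Opn1sw, the short-wave cone opsin, had 4710, 4120 and 4710 count equivalents in the C57BL/6J libraries and 2850, 2520 and 2480 in the Cast/EiJ libraries. All Cast/EiJ libraries were below all C57BL/6J libraries (log2 fold change -0.79 ± 0.08 (SE), adjusted p = 0.00014). Kcne2, Pde6c and Thrb were lower as well (-0.63, -0.46 and -0.35 log2), of which Pde6c encodes the catalytic cone phosphodiesterase and Thrb the thyroid hormone receptor that sets the opsin a cone makes. Guca1a, an activator of guanylate cyclase in rods and cones, rose 1.93-fold, from 9177 ± 1847 to 17767 ± 3869.5 (mean ± SD, n = 3 each; log2 fold change 0.95 ± 0.19 (SE), adjusted p = 0.005). The cone transducin gene Gnat2 (-0.17, adjusted p = 0.08) and the phosphodiesterase gene Pde6h (-0.14, adjusted p = 0.32) did not pass, and the log2 fold change of Pde6h was 0.924 on the deposited log expression values. The middle-wave opsin and cone arrestin genes lie on the X chromosome and were not members. 

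Bipolar cell genes that differed were mostly lower in Cast/EiJ: 9 of 29 were lower and 2 higher, with a median of -0.23 (on single-gene reads, 14 lower and 2 higher). The rod bipolar kinase Prkca (-0.22, adjusted p = 0.081) and the cation channel Trpm1 (-0.22, adjusted p = 0.15), which opens when light is detected, did not pass. In FPKM, the mean of Prkca went the other way, from 42.5 in C57BL/6J to 53.7 in Cast/EiJ. Among the lower genes, Car8, a carbonic anhydrase-related protein, had 665, 650 and 703 count equivalents in the C57BL/6J libraries and 246, 318 and 356 in the Cast/EiJ libraries, and each Cast/EiJ library was far below each C57BL/6J library (log2 fold change -1.15 ± 0.13 (SE), adjusted p = 0.00023). Kcng4, a silent potassium channel subunit, fell by a similar amount (-1.01, adjusted p = 0.00041). Gpr179 had 2860, 2990 and 2640 count equivalents in the C57BL/6J libraries and 1660, 1710 and 1600 in the Cast/EiJ libraries. Its product places the regulators that shut off the receptor cascade of depolarizing bipolar cells, and it was lower by 41.4% with no overlap (log2 fold change -0.77 ± 0.07 (SE), adjusted p = 5.5e-05). Grm6, the glutamate receptor of that cascade, was slightly lower (-0.24, adjusted p = 0.041). These were the 2 of 12 tested genes of the mGluR6 cascade that passed. On single-gene reads, 5 genes of the cascade were lower by edgeR and 4 by DESeq2. By limma, lower genes of the cascade numbered 1 without C57BL/6J R2 or Cast/EiJ R1, R2 or R3 and 4 without C57BL/6J R1. Cabp5, a calcium-binding protein of rod bipolar and some cone bipolar cells, had 979, 1090 and 1050 in C57BL/6J and 2720, 2500 and 2670 in Cast/EiJ and was 2.53-fold higher in Cast/EiJ (log2 fold change 1.34 ± 0.07 (SE), adjusted p = 1.6e-06), and Grik1, the kainate receptor of hyperpolarizing bipolar cells, rose with 0.36, adjusted p = 0.0081. The test was no longer passed for Grm6 without any 1 library but C57BL/6J R3 (adjusted p = 0.069 to 0.14).

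Of 30 amacrine genes, 7 were higher and 2 lower in Cast/EiJ, a share of 30% beside 32.5% of all members that passed. On single-gene reads, 7 were higher and 4 lower. The median was 0.08 against 0.04 over all members, and the genes that rose were of different subtypes. Th, the enzyme that starts dopamine synthesis, had 54, 39.7 and 37 count equivalents in the C57BL/6J libraries and 89.3, 77.2 and 103 in the Cast/EiJ libraries. Its level was 2.05-fold higher (log2 fold change 1.04 ± 0.20 (SE), adjusted p = 0.0049). Slc18a2, which loads dopamine into vesicles, rose by a like factor of 1.94 (log2 fold change 0.95 ± 0.16 (SE), adjusted p = 0.0019), from 117 ± 16.5 to 228 ± 35.4 (mean ± SD, n = 3 each). In both genes every Cast/EiJ library was above every C57BL/6J library. Tac1, the precursor of substance P (0.65, adjusted p = 0.011), Slc6a9, the glycine transporter of glycinergic cells (0.56, adjusted p = 0.0014), and Gad2, an enzyme of GABA synthesis (0.54, adjusted p = 0.0015), were higher too. The lower genes were Penk, the enkephalin precursor (-1.05, adjusted p = 0.012), and Slc17a8, the vesicular glutamate transporter VGLUT3 (-0.78, adjusted p = 0.0038). Markers of starburst cells, Chat (0.12, adjusted p = 0.63) and Slc5a7 (0.25, adjusted p = 0.11), did not pass, nor did Gad1 (0.21, adjusted p = 0.15). Of 11 horizontal cell genes, 1 was higher and 2 lower, and the highest log2 fold change of the list was 0.71. The lower ones were Lhx1, which positions these cells, and the septin gene Sept4 (-0.70 and -0.40). Calb1 did not pass (0.14, adjusted p = 0.38), and its mean FPKM went the other way, from 14.4 in C57BL/6J to 11.65 in Cast/EiJ. The threshold was missed for Lhx1 without C57BL/6J R2 or R3 (adjusted p = 0.051 to 0.053).

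Ganglion cell genes showed the clearest lean of the neuronal lists: 14 of 30 were lower in Cast/EiJ and 1 was higher, with a median of -0.33. The neurofilaments, which fill large axons, fell together. Nefh, the heavy neurofilament, had 1670, 1420 and 1670 count equivalents in the C57BL/6J libraries and 925, 788 and 836 in the Cast/EiJ libraries, and the lower strain lost 46.4% of the level (log2 fold change -0.90 ± 0.09 (SE), adjusted p = 0.00012). Nefl, the light neurofilament, had 6640, 6990 and 7760 in C57BL/6J and 4190, 4420 and 4970 in Cast/EiJ (log2 fold change -0.66 ± 0.09 (SE), adjusted p = 0.00057), and Nefm, the medium one, gave -0.54, adjusted p = 0.0019. In all of them the 3 Cast/EiJ libraries lay below the 3 C57BL/6J libraries. Thy1, a surface protein used to mark ganglion cells, had 2740, 2380 and 2560 count equivalents in the C57BL/6J libraries and 1590, 1470 and 1570 in the Cast/EiJ libraries and was equally separated (log2 fold change -0.73 ± 0.07 (SE), adjusted p = 0.00011). Chrnb3 and Chrna6, subunits of a nicotinic acetylcholine receptor, were lower (-0.61, adjusted p = 0.0021, and -0.33, adjusted p = 0.012), and so was the transcription factor Pou4f1 (-0.32, adjusted p = 0.041). Other markers of these cells did not pass: Rbpms had 475, 373 and 376 in C57BL/6J and 430, 359 and 354 in Cast/EiJ (log2 fold change -0.10 ± 0.13 (SE), adjusted p = 0.59), Pou4f2 gave -0.09, adjusted p = 0.76, Slc17a6, the vesicular glutamate transporter VGLUT2, gave -0.15, adjusted p = 0.23, and Sncg gave -0.07, adjusted p = 0.56. The 1 higher gene was Opn4, melanopsin, the pigment of intrinsically light-sensitive ganglion cells, with 76.3, 77.1 and 75.4 in C57BL/6J and 114, 104 and 110 in Cast/EiJ (log2 fold change 0.51 ± 0.13 (SE), adjusted p = 0.018). Significance was lost for Pou4f1 without any 1 library but Cast/EiJ R1 (adjusted p = 0.05 to 0.13) and Opn4 without C57BL/6J R2 or R3 or Cast/EiJ R1 or R3 (adjusted p = 0.051 to 0.053).

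**Figure D2:**
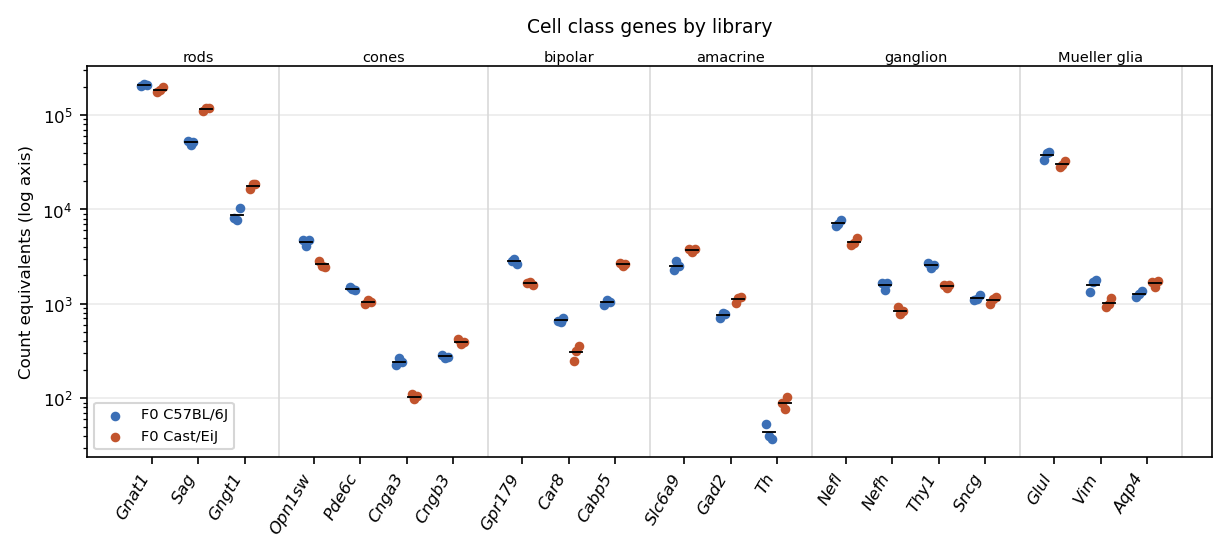
Count equivalents of 20 genes of rods, cones, bipolar, amacrine and ganglion cells and Müller glia in each of the 6 F0 libraries, on a log axis, with 1 point per library (blue for C57BL/6J, orange for Cast/EiJ) and a line at the mean of each strain. The plot shows Sag, Gngt1, Cabp5 and Th above in Cast/EiJ and Cnga3, Opn1sw, Gpr179, Nefh and Thy1 below, while the Gnat1 and Sncg points of the strains lie close together.

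Müller glia, the main glial cells of the retina, had 4 genes higher and 7 lower of 25, with a median of -0.03. Vim, the intermediate filament vimentin, had 1350, 1690 and 1770 count equivalents in the C57BL/6J libraries and 924, 1000 and 1160 in the Cast/EiJ libraries, lower in every Cast/EiJ library (log2 fold change -0.64 ± 0.12 (SE), adjusted p = 0.0038). Glul, the enzyme that turns glutamate into glutamine, was lower by 19.6% (-0.32, adjusted p = 0.042), and Clu and Car2 by 26.5% and 27.3% (-0.44, adjusted p = 0.0017, and -0.46, adjusted p = 0.02). The water channel Aqp4 (0.38, adjusted p = 0.0098) and the carbonic anhydrase Car14 (0.52, adjusted p = 0.0053) were higher. Rlbp1 and Kcnj10, a retinoid carrier and a potassium channel of these cells, did not pass (0.23, adjusted p = 0.079, and 0.24, adjusted p = 0.16). Lower Müller genes numbered 3 without C57BL/6J R2 or R3 or Cast/EiJ R2 and 4 without Cast/EiJ R1. Higher ones numbered 2 without C57BL/6J R1 or R2 or Cast/EiJ R3 and 6 without Cast/EiJ R1. Among the 9 astrocyte genes, Aldh1l1, an enzyme of folate metabolism used as a marker of these cells, had 151, 183 and 182 in C57BL/6J and 45.7, 35.7 and 28.3 in Cast/EiJ and was 4.67-fold lower (log2 fold change -2.22 ± 0.20 (SE), adjusted p = 5.2e-05). Gfap was lower by less (-0.49, adjusted p = 0.027), Pax2 did not pass (-0.06, adjusted p = 0.9), and Aldoc, an aldolase, was 1.71-fold higher (0.77, adjusted p = 4.7e-05). The call was lost for Car2 without C57BL/6J R2 or R3 or Cast/EiJ R1 or R2 (adjusted p = 0.052 to 0.078), Gfap without C57BL/6J R2 or R3 or Cast/EiJ R1 (adjusted p = 0.058 to 0.099) and Glul without any 1 library but C57BL/6J R1 (adjusted p = 0.051 to 0.14).

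Microglial genes were low in both strains and lower in Cast/EiJ. Of 15 tested, none was higher and 8 lower (median -0.80), and 8 others, Aif1 among them, were below the filter. Over the tested genes, their summed count equivalents were 862 to 885 in C57BL/6J and 589 to 681 in Cast/EiJ. C1qa, a chain of the complement component that opens the classical pathway, had 52.1, 35.7 and 39.8 count equivalents in the C57BL/6J libraries and 11.6, 13 and 8.38 in the Cast/EiJ libraries, and each Cast/EiJ value was under 0.5 of each C57BL/6J value (log2 fold change -1.86 ± 0.28 (SE), adjusted p = 0.0011). The other C1q chains, C1qb and C1qc, followed (-1.39, adjusted p = 0.0048, and -1.33, adjusted p = 0.023), as did the integrin gene Itgam (-1.29, adjusted p = 0.0078) and the fractalkine receptor gene Cx3cr1 (-0.78, adjusted p = 0.02). Defining markers were not all lower, since Csf1r (-0.46, adjusted p = 0.24), Tmem119 (-0.35, adjusted p = 0.6) and P2ry12 (0.52, adjusted p = 0.18) did not pass. The test was no longer passed for C1qc without C57BL/6J R1 or R3 or Cast/EiJ R2 or R3 (adjusted p = 0.061 to 0.072) and Cx3cr1 without C57BL/6J R2 or R3 or Cast/EiJ R3 (adjusted p = 0.06 to 0.079).

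Of 24 endothelial genes, 9 were lower and 3 higher in Cast/EiJ (median -0.42). Pecam1, an adhesion molecule between endothelial cells, went from 127 ± 22.7 to 63.1 ± 5.20 (mean ± SD, n = 3 each), all of the Cast/EiJ libraries being lower (log2 fold change -0.98 ± 0.18 (SE), adjusted p = 0.003). Ly6c1 and Slco1a4, a surface antigen and a transporter of the blood-retina barrier, fell further (-1.67, adjusted p = 6.6e-05, and -1.23, adjusted p = 0.0032), and Cdh5, the vascular cadherin, fell alongside (-0.96, adjusted p = 0.011). Cldn5, a tight junction protein, did not pass (-0.64, adjusted p = 0.074). Kdr, the receptor VEGFR2, which the retina also expresses outside its vessels, had 1640, 2330 and 2010 in C57BL/6J and 2740, 3120 and 3490 in Cast/EiJ and was higher (log2 fold change 0.65 ± 0.13 (SE), adjusted p = 0.0056). In the pericyte list, Rgs5, a regulator of G protein signalling, had 789, 826 and 908 count equivalents in the C57BL/6J libraries and 275, 245 and 300 in the Cast/EiJ libraries and was 3.07-fold lower (log2 fold change -1.62 ± 0.10 (SE), adjusted p = 5.1e-06), Pdgfrb gave -0.40, adjusted p = 0.066, and 3 of 11 were lower with 1 higher. The higher gene was Vtn, vitronectin, with 0.53, adjusted p = 0.00062. Lower pericyte genes numbered 5 without C57BL/6J R1 or Cast/EiJ R3. 

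Markers of tissues next to the retina were measured alongside. Of 14 pigment epithelium genes tested, 4 were lower in Cast/EiJ and none higher, with summed count equivalents of 1560 to 1893 in C57BL/6J and 1083 to 1404 in Cast/EiJ. The lower ones were Ttr, the carrier of thyroxine and retinol-binding protein (-1.77, adjusted p = 0.00046), Rgr (-1.52, adjusted p = 0.0034), Rdh5 (-0.90, adjusted p = 0.015) and Krt18 (-0.94, adjusted p = 0.0054). The defining marker Rpe65 had 7.71, 20.7 and 20.1 in C57BL/6J and 11.7, 11.5 and 9.61 in Cast/EiJ (log2 fold change -0.41 ± 0.41 (SE), adjusted p = 0.46), and the pigment cell genes Best1, Tyr, Slc45a2, Mlana and Ermn were below the filter. None of 8 lens genes passed, although their sum ran from 482 to 707 in C57BL/6J and from 576 to 789.5 in Cast/EiJ. The beta globin gene Hbb-b1 had 182, 239 and 305 in C57BL/6J and 118, 70.6 and 148 in Cast/EiJ (log2 fold change -1.13 ± 0.28 (SE), adjusted p = 0.013), and the 4 blood genes summed to 676 to 1035 in C57BL/6J and 347 to 616 in Cast/EiJ. Of these 4 genes, 3 were lower and 0 higher, and 1 rested mostly on reads shared with other genes. The mean of the alpha globin gene Hba-a1 went the other way, from 248 in C57BL/6J to 363 in Cast/EiJ. In the connective tissue list, Mgp and Fmod were lower and the collagen gene Col1a2 higher (-2.02, -1.64 and 1.56). The part of these other tissues in the vascular, immune and gliosis counts was not tested. The threshold was missed for Rdh5 without C57BL/6J R1 or R2 (adjusted p = 0.051 to 0.058).

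**Figure D3:**
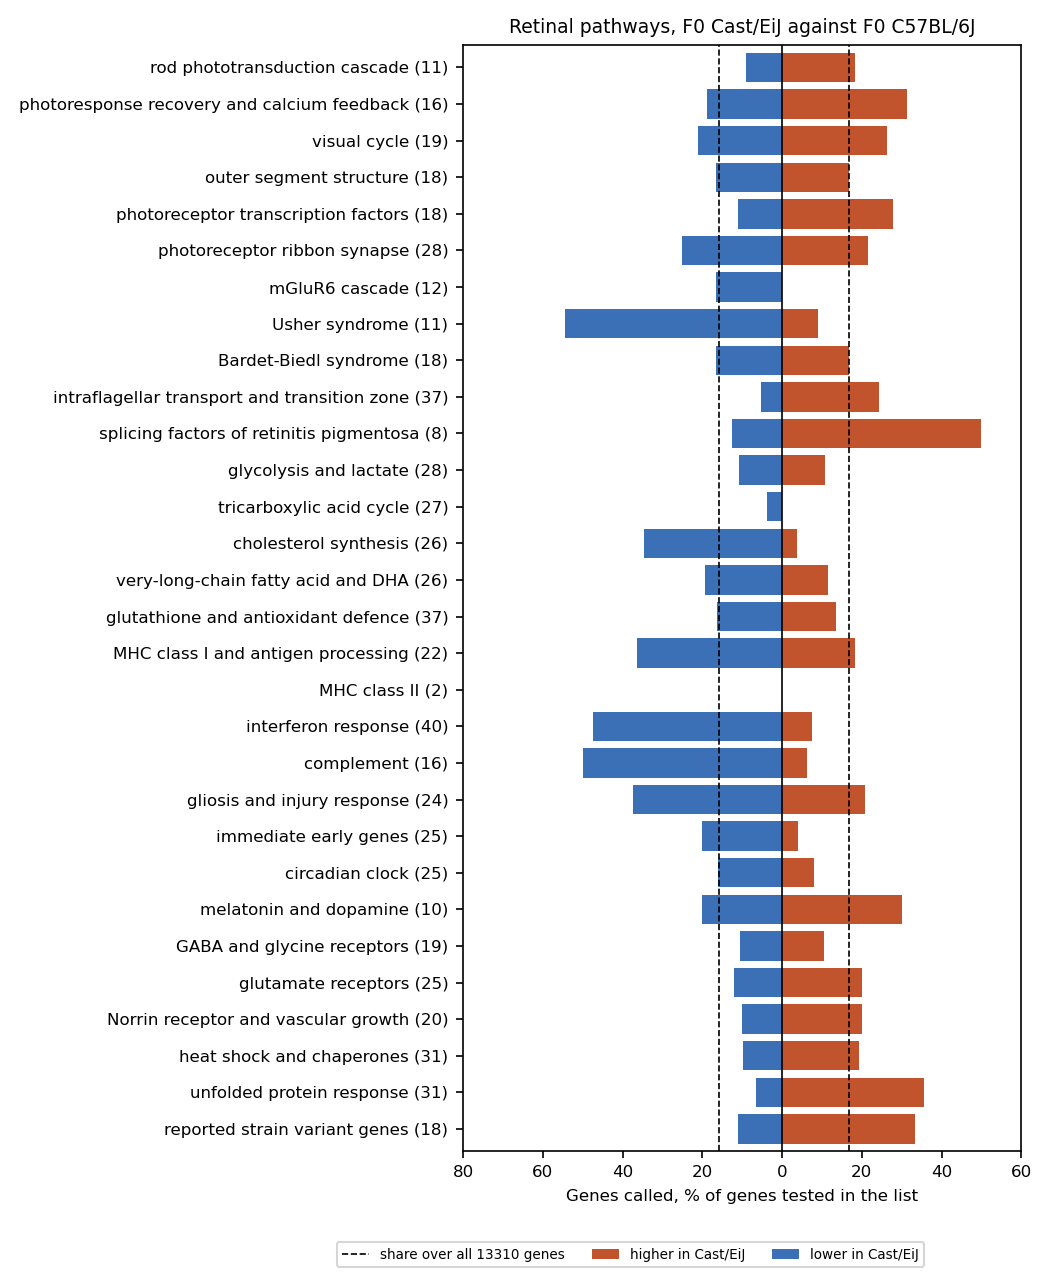
Shares of the tested genes of 30 pathway lists that were higher (bars to the right) or lower (bars to the left) in Cast/EiJ, in percent, with the number tested in brackets and dashed lines at the shares of all 13310 members. Usher syndrome (6 of 11 genes), complement (8 of 16) and interferon response genes (19 of 40) reach furthest to the left, and the splicing factors of retinitis pigmentosa (4 of 8) and the unfolded protein response (11 of 31) furthest to the right.

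Phototransduction ran from the rod cascade, in which 2 of 11 genes were higher and 1 lower, to the recovery and calcium feedback genes, in which 5 were higher and 3 lower of 16. The transducin and phosphodiesterase subunits other than Gngt1 did not pass: the log2 fold change was -0.11 for Gnb1, 0.03 for Pde6a, 0.18 for Pde6b and -0.03 for Pde6g. In the recovery list, the arrestin, recoverin and cyclase activator genes above were higher, as was Ppef2, a photoreceptor phosphatase, with 1780, 1740 and 1630 in C57BL/6J and 2430, 2640 and 2660 in Cast/EiJ (log2 fold change 0.59 ± 0.07 (SE), adjusted p = 0.00028). In contrast, Rgs9 and its membrane anchor Rgs9bp, which speed the shut-off of transducin, were lower (-0.32, adjusted p = 0.0069, and -0.46, adjusted p = 0.00061). The photoreceptor kinase gene Grk1 did not pass (0.12, adjusted p = 0.26). Higher recovery genes numbered 3 without C57BL/6J R2 or Cast/EiJ R2 or R3. Lower ones numbered 5 without C57BL/6J R1. 

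The visual cycle returns the chromophore of the visual pigments to its light-sensitive form, and 5 of its 19 tested genes were higher and 4 lower. The largest change was in Retsat, a retinol saturase (chr6:72548469-72558419), with 158, 133 and 159 count equivalents in the C57BL/6J libraries and 596, 680 and 634 in the Cast/EiJ libraries. It was 4.23-fold higher in Cast/EiJ, the libraries being wide apart (log2 fold change 2.08 ± 0.11 (SE), adjusted p = 1.5e-06). The photoreceptor retinol dehydrogenases did not move as 1 group. Rdh12 had 4560, 3820 and 4580 in C57BL/6J and 8870, 6250 and 6930 in Cast/EiJ and rose (log2 fold change 0.76 ± 0.13 (SE), adjusted p = 0.0023), as did Rdh11 (0.64, adjusted p = 0.0013) and the related Dhrs7 (0.82, adjusted p = 0.00089), whereas Rdh8 fell (-0.30, adjusted p = 0.026). Rgr and Rdh5, of pigment epithelium and Müller glia, were lower as given above with the markers of pigment epithelium. Abca4, the flippase of outer segment discs, gave -0.02, adjusted p = 0.86. Lower visual cycle genes numbered 2 without C57BL/6J R1. Significance was lost for Rdh8 without C57BL/6J R1 or Cast/EiJ R2 or R3 (adjusted p = 0.065 to 0.091).

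Among 18 genes of outer segment structure, 3 were higher and 3 lower. Impg2, a proteoglycan of the matrix between photoreceptors, had 5230, 5070 and 5390 count equivalents in the C57BL/6J libraries and 10000, 9990 and 10000 in the Cast/EiJ libraries (log2 fold change 0.93 ± 0.06 (SE), adjusted p = 6.2e-06), every Cast/EiJ library being higher. Its relative Impg1 was lower (-0.30, adjusted p = 0.0046), and Rpgrip1, which anchors a regulator at the connecting cilium, had 11500, 10300 and 9240 in C57BL/6J and 6470, 6640 and 5790 in Cast/EiJ (log2 fold change -0.71 ± 0.09 (SE), adjusted p = 0.00054). The disc rim genes Prph2 and Rom1 did not pass (0.01, adjusted p = 0.95, and 0.22, adjusted p = 0.063). Higher outer segment genes numbered 1 without C57BL/6J R2 or Cast/EiJ R3. Photoreceptor transcription factors counted 5 higher and 2 lower of 18. Prdm1, the factor Blimp1 that keeps photoreceptor precursors from becoming bipolar cells, had 287, 244 and 283 count equivalents in the C57BL/6J libraries and 671, 647 and 661 in the Cast/EiJ libraries and was 2.43-fold higher (log2 fold change 1.28 ± 0.09 (SE), adjusted p = 1.3e-05). Samd7, a photoreceptor protein of a Polycomb complex, was 2.21-fold higher (log2 fold change 1.15 ± 0.09 (SE), adjusted p = 3e-05), with 2550, 3210 and 3180 in C57BL/6J and 6310, 6610 and 6780 in Cast/EiJ. Rorb was lower (-0.49, adjusted p = 0.005), and the central regulator Crx did not pass (0.06, adjusted p = 0.62). Higher transcription factor genes numbered 3 without C57BL/6J R1 or R3 or Cast/EiJ R2 or R3. 

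Genes of the photoreceptor ribbon synapse, 28 in all, counted 6 higher and 7 lower. Cabp4, the calcium-binding regulator of the presynaptic calcium channel, had 2400, 2360 and 2500 in C57BL/6J and 4020, 3710 and 3850 in Cast/EiJ (log2 fold change 0.67 ± 0.06 (SE), adjusted p = 6.9e-05) and was above in every Cast/EiJ library. Snap25, a fusion protein of all synapses (-0.48, adjusted p = 0.00094), was lower. The channel subunit gene Cacna2d4 was lower by 15.1% (-0.24, adjusted p = 0.033). Higher genes of this list numbered 3 without C57BL/6J R2 or R3 or Cast/EiJ R1 or R3. The call was lost for Cacna2d4 without C57BL/6J R2 or R3 or Cast/EiJ R1 or R3 (adjusted p = 0.074 to 0.12).

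Usher syndrome joins deafness with retinal degeneration, and its genes encode a motor, adhesion proteins and scaffolds of hair cells and photoreceptors. Of 11 tested, 6 were lower and 1 was higher in Cast/EiJ (median -0.60). Myo7a, the myosin motor (chr7:105199570-105268034), had 530, 720 and 560 count equivalents in the C57BL/6J libraries and 16.3, 27.1 and 24.2 in the Cast/EiJ libraries. The difference was 25.98-fold (log2 fold change -4.70 ± 0.21 (SE), adjusted p = 5.1e-07). The cilium adhesion genes Gpr98 and Pcdh15 were lower by smaller amounts: Gpr98 had 3660, 3900 and 4140 in C57BL/6J and 1960, 1860 and 1530 in Cast/EiJ (log2 fold change -1.13 ± 0.10 (SE), adjusted p = 4.2e-05), and Pcdh15 gave -0.50, adjusted p = 0.0029. Cib2, a calcium-binding protein, was 2.09-fold lower (-1.06, adjusted p = 0.00064), and the scaffold gene Ush1g, at a mean of 48.7 in C57BL/6J, was 7.17-fold lower (-2.84, adjusted p = 0.0022). Cdh23, a cadherin of the same complex, went the opposite way with 21, 3.69 and 2.49 in C57BL/6J and 37, 42 and 117 in Cast/EiJ (log2 fold change 3.02 ± 0.70 (SE), adjusted p = 0.01), a low gene for which 2 of the C57BL/6J libraries were under 10 count equivalents. Whrn and Clrn1 did not pass (-0.07, adjusted p = 0.59, and -0.67, adjusted p = 0.12). With 1 library left out, the log2 fold change was 3.84 for Cdh23 without C57BL/6J R1 and -2.25 for Ush1g without Cast/EiJ R3.

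Bardet-Biedl syndrome genes, which carry membrane proteins to and from cilia, counted 3 higher and 3 lower of 18, and the largest change was in Bbs7, a subunit of the BBSome, with 2120, 2020 and 2080 in C57BL/6J and 937, 871 and 966 in Cast/EiJ (log2 fold change -1.17 ± 0.07 (SE), adjusted p = 3.3e-06). Bbs12 was lower too (-0.68, adjusted p = 0.0022). Higher Bardet-Biedl genes numbered 0 without C57BL/6J R2 and 1 without C57BL/6J R3 or Cast/EiJ R1, R2 or R3. Intraflagellar transport and transition zone genes counted 9 higher and 2 lower of 37, with Invs (0.81, adjusted p = 0.029), B9d1 (0.75, adjusted p = 0.016) and Ttc21b (0.66, adjusted p = 0.0016) highest, and Ift46, a carrier subunit, lowest (-0.63, adjusted p = 0.001), although the log2 fold change of Ift46 was 0.0245 on the deposited log expression values. Higher intraflagellar genes numbered 4 without C57BL/6J R3 or Cast/EiJ R2 and 5 without C57BL/6J R2. Of 8 splicing factors whose mutation causes retinitis pigmentosa, 4 were higher (Prpf31 0.48, Prpf3 0.38, Snrnp200 0.37 and Prpf8 0.28) and Rp9 was lower (-0.69). The test was no longer passed for Prpf8 without any 1 library but Cast/EiJ R1 (adjusted p = 0.053 to 0.15), Invs without C57BL/6J R2 or R3 or Cast/EiJ R1 or R2 (adjusted p = 0.075 to 0.1) and B9d1 without C57BL/6J R3 or Cast/EiJ R2 or R3 (adjusted p = 0.056 to 0.069).

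Photoreceptors run aerobic glycolysis, and of 28 glycolysis and lactate genes 3 were higher and 3 lower. The 3 lower ones, Gapdh, Eno1 and Pgam1, rested mostly on reads shared with other genes, and Gapdh and Eno1 are taken up with the largest changes. Eno2, the neuronal enolase, had 7170, 6770 and 6600 in C57BL/6J and 12000, 10800 and 11100 in Cast/EiJ and Aldoc 5560, 5980 and 5970 in C57BL/6J and 9550, 9820 and 10500 in Cast/EiJ, both higher in every Cast/EiJ library (log2 fold change 0.72 ± 0.07 (SE), adjusted p = 8.7e-05, and for Aldoc log2 fold change 0.77 ± 0.07 (SE), adjusted p = 4.7e-05). Slc16a1, a lactate transporter, rose less (0.39, adjusted p = 0.0039). Lower glycolysis and lactate genes numbered 6 without C57BL/6J R1. The tricarboxylic acid cycle had 1 lower gene, Sdhc (-0.22, adjusted p = 0.038), of 27. Complex I had 1 higher and 3 lower of 34, led by Ndufs5 (-1.55, adjusted p = 0.00077), and complexes III, IV and V had 5 higher and 3 lower of 35, with Cox7a2l, a factor of respiratory supercomplexes, at 1110, 1050 and 1290 in C57BL/6J and 235, 223 and 227 in Cast/EiJ (log2 fold change -2.32 ± 0.10 (SE), adjusted p = 3.3e-07) and Cox6a1 higher (0.84, adjusted p = 4.2e-05). The share of reads from mitochondrially encoded genes was lower in Cast/EiJ, as given above. Higher genes of complexes III, IV and V numbered 2 without C57BL/6J R1 or R2 or Cast/EiJ R2 or R3 and 8 without Cast/EiJ R1. The threshold was missed for Sdhc without any 1 library (adjusted p = 0.066 to 0.12).

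In lipid pathways, 9 of 26 cholesterol genes were lower and 1 higher (median -0.13). Pmvk and Hsd17b7, enzymes of the early and the late steps, changed most (-1.41, adjusted p = 2.6e-05, and -1.11, adjusted p = 0.0013). In the list of very-long-chain fatty acids and docosahexaenoic acid, the lipid of outer segment membranes, 3 were higher and 5 lower of 26. Elovl2, the elongase that makes the precursor of that acid, had 1100, 1200 and 1190 count equivalents in the C57BL/6J libraries and 3240, 2960 and 3240 in the Cast/EiJ libraries, and the Cast/EiJ libraries stood 2.70-fold higher on average (log2 fold change 1.43 ± 0.07 (SE), adjusted p = 9.7e-07). Lpcat1 and Adipor1, both needed for normal photoreceptor lipids, rose as well (0.61, adjusted p = 0.00039, and 0.54, adjusted p = 0.00033). Elovl4, the elongase of the longest chains, did not pass (0.10, adjusted p = 0.27), and Fabp5 was lower (-1.13, adjusted p = 0.0017). 

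Antioxidant genes counted 5 higher and 6 lower of 37. Mt1 and Mt2, the metallothioneins that bind zinc, fell together, Mt1 with 669, 652 and 679 in C57BL/6J and 182, 228 and 233 in Cast/EiJ (log2 fold change -1.64 ± 0.11 (SE), adjusted p = 8.2e-06) and Mt2 with -1.25, adjusted p = 0.00073. Nxnl2 and Nxnl1, which encode the rod-derived cone viability factors, were higher (log2 fold change 0.995 ± 0.11 (SE), adjusted p = 0.00017, and for Nxnl1 0.61, adjusted p = 0.0023). Slc7a11, the cystine transporter, was 2.01-fold higher (1.01, adjusted p = 0.0022). In the glutathione S-transferase family, 4 were higher and 5 lower of 20, and Gstm7 had 54.6, 73.7 and 51.2 in C57BL/6J and 429, 459 and 545 in Cast/EiJ (log2 fold change 2.99 ± 0.17 (SE), adjusted p = 2.1e-06) against Gstt1 with 157, 229 and 209 in C57BL/6J and 80.5, 94 and 116 in Cast/EiJ (log2 fold change -1.02 ± 0.19 (SE), adjusted p = 0.0033). Of 21 cytochrome P450 genes, 9 were lower and 2 higher (median -0.44), with Cyp2j6 lowest of those that averaged 50 count equivalents or more (-1.26, adjusted p = 0.00037) and Cyp1b1, a gene of inherited glaucoma, lower by 40.2% (-0.74, adjusted p = 0.011).  Higher antioxidant genes numbered 3 without C57BL/6J R2 or Cast/EiJ R3. Lower glutathione S-transferase genes numbered 3 without C57BL/6J R2.

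**Figure D4:**
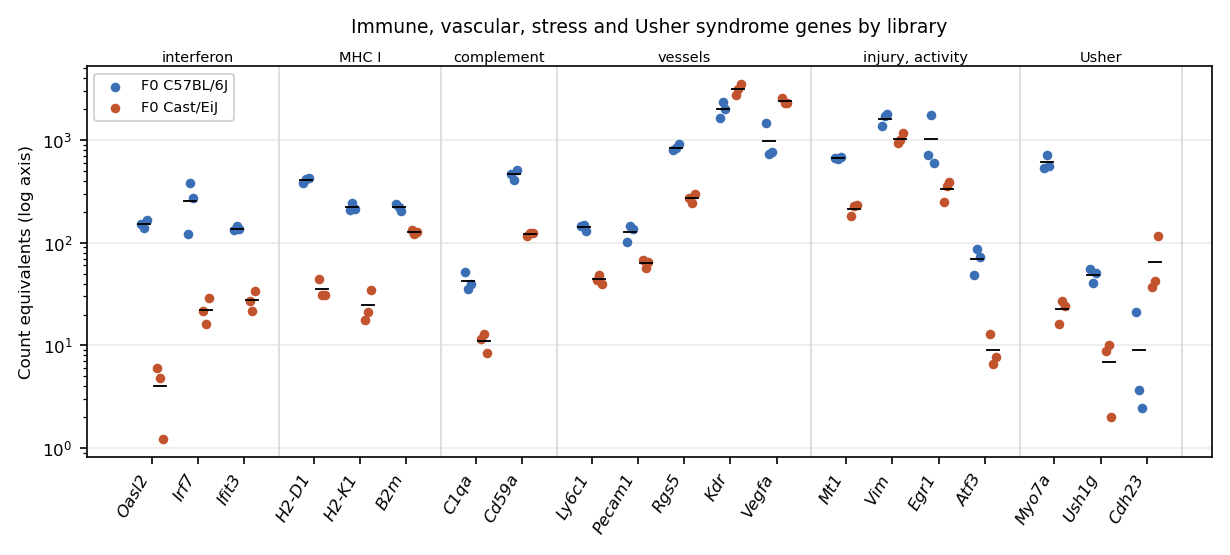
Count equivalents of 20 interferon, class I, complement, vascular, injury and activity, and Usher syndrome genes in each of the 6 F0 libraries, on a log axis, with 1 point per library (blue for C57BL/6J, orange for Cast/EiJ) and a line at the mean of each strain. H2-D1, H2-K1, Oasl2, Irf7, Cd59a and Myo7a are lower in all 3 Cast/EiJ libraries, and Kdr, Vegfa and Cdh23 are higher in all of them.

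Immune gene lists leaned to lower levels in Cast/EiJ. The classical class I major histocompatibility genes, which show peptides to T cells, were much lower. H2-D1 (chr17:35399675-35404444) had 379, 413 and 429 count equivalents in the C57BL/6J libraries and 44, 30.8 and 30.8 in the Cast/EiJ libraries. H2-K1 had 207, 245 and 212 in C57BL/6J and 17.6, 21.1 and 34.8 in Cast/EiJ. Both were lower by about an order of magnitude (log2 fold change -3.51 ± 0.17 (SE), adjusted p = 8e-07, and for H2-K1 log2 fold change -3.18 ± 0.24 (SE), adjusted p = 1.9e-05). These genes are highly polymorphic and sit among close relatives, and the single-gene reads of H2-D1 went from a mean of 340.3 to 24. B2m, the invariant light chain encoded on another chromosome, fell less, with 237, 221 and 203 in C57BL/6J and 134, 122 and 128 in Cast/EiJ (log2 fold change -0.78 ± 0.12 (SE), adjusted p = 0.0011). Over the class I and antigen processing list, 8 were lower and 4 higher of 22, and the higher ones included Erap1, the peptidase that trims the peptides (1.20, adjusted p = 0.00013), and the chaperones Calr (0.46, adjusted p = 0.0062) and Pdia3 (0.57, adjusted p = 0.0014). Of the class II genes, 2 were above the filter and neither passed. 

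The interferon response list counted 19 lower and 3 higher of 40, with a median of -0.72, and 16 further genes were below the filter. Oasl2, an oligoadenylate synthase-like protein, had 153, 139 and 168 count equivalents in the C57BL/6J libraries and 5.99, 4.77 and 1.22 in the Cast/EiJ libraries. No Cast/EiJ library exceeded 5.99 (log2 fold change -5.10 ± 0.41 (SE), adjusted p = 2.5e-05). Irf7, the regulator that amplifies the response, had 122, 380 and 269 in C57BL/6J and 21.6, 16 and 29.1 in Cast/EiJ and was 10.3-fold lower (log2 fold change -3.37 ± 0.39 (SE), adjusted p = 0.00024). Ifit2 and Ifit3, which block translation of viral RNA, were 5.38-fold and 4.92-fold lower (-2.43, adjusted p = 9.4e-05, and -2.30, adjusted p = 4.2e-05), whereas Xaf1 was 3.45-fold higher, with 30.6, 36.3 and 39.3 in C57BL/6J and 125, 126 and 121 in Cast/EiJ (log2 fold change 1.79 ± 0.16 (SE), adjusted p = 6e-05). The transducer Stat2 did not pass (-0.04, adjusted p = 0.79). The count of lower genes was 10 without C57BL/6J R2. Higher interferon genes numbered 1 without Cast/EiJ R3. 

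Complement genes were lower in 8 of 16 cases and higher in 1 (median -0.76). Beside the C1q chains, the lower genes included Cd59a, Serping1, Cd46 and Clu, which are inhibitors of complement. Cd59a, which blocks the membrane attack complex, had 463, 411 and 512 count equivalents in the C57BL/6J libraries and 117, 125 and 124 in the Cast/EiJ libraries and was 3.75-fold lower (log2 fold change -1.91 ± 0.11 (SE), adjusted p = 3.4e-06). C3 gave 0.06, adjusted p = 0.88 and C4b 0.09, adjusted p = 0.67. Gliosis and injury genes counted 9 lower and 5 higher of 24 (median -0.48). Il33, an alarm cytokine of Müller glia, had 604, 507 and 615 in C57BL/6J and 229, 232 and 230 in Cast/EiJ (log2 fold change -1.31 ± 0.10 (SE), adjusted p = 1.9e-05) and Atf3, an injury-induced transcription factor, was 6.98-fold lower (-2.80, adjusted p = 0.00023), while Cd44, the hyaluronan receptor, Osmr and Ednrb were higher (0.82, 0.98 and 0.99). Immediate early genes, induced by neural activity, counted 5 lower and 1 higher of 25. Egr1 had 719, 1730 and 594 count equivalents in the C57BL/6J libraries and 250, 359 and 390 in the Cast/EiJ libraries (log2 fold change -1.46 ± 0.35 (SE), adjusted p = 0.012), so that the C57BL/6J libraries spread widely, and Nr4a1 had 713, 1270 and 602 in C57BL/6J and 372, 450 and 481 in Cast/EiJ (log2 fold change -0.92 ± 0.24 (SE), adjusted p = 0.018). Fos and Jun did not pass (-0.65, adjusted p = 0.055, and 0.08, adjusted p = 0.57). Higher gliosis genes numbered 3 without C57BL/6J R1 or R2 or Cast/EiJ R2. Lower immediate early genes numbered 3 without C57BL/6J R2 or Cast/EiJ R1. Significance was lost for Serping1 without any 1 library but Cast/EiJ R1 (adjusted p = 0.076 to 0.11) and Nr4a1 without Cast/EiJ R1 or R2 (adjusted p = 0.054 to 0.061).

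Clock genes counted 2 higher and 4 lower of 25. Lower clock genes numbered 2 without Cast/EiJ R1. Arntl, or Bmal1, was slightly higher (0.24, adjusted p = 0.044) and Cry1 slightly lower (-0.32, adjusted p = 0.031), and Per2, whose RNA swings over the day, gave 0.04, adjusted p = 0.81. In the melatonin and dopamine list, 3 were higher and 2 lower of 10. Besides Th and Slc18a2, the receptor gene Drd2 was higher (0.44, adjusted p = 0.0095) and the photoreceptor receptor Drd4, itself rhythmic, had 2180, 3680 and 3010 in C57BL/6J and 2000, 1620 and 2070 in Cast/EiJ and was lower (log2 fold change -0.62 ± 0.18 (SE), adjusted p = 0.025). Higher genes of this list numbered 5 without C57BL/6J R1. Lower ones numbered 0 without C57BL/6J R2 or R3 and 1 without Cast/EiJ R1 or R2. The call was lost for Arntl without C57BL/6J R1 or R3 or Cast/EiJ R2 or R3 (adjusted p = 0.092 to 0.15), Drd4 without C57BL/6J R2 or R3 or Cast/EiJ R2 (adjusted p = 0.072 to 0.099) and Cry1 without C57BL/6J R3 or Cast/EiJ R1 or R2 (adjusted p = 0.073 to 0.11).

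Receptors for GABA and glycine had 2 higher and 2 lower genes of 19. Gabra2, a GABA-A receptor subunit, had 114, 95.2 and 117 count equivalents in the C57BL/6J libraries and 327, 431 and 394 in the Cast/EiJ libraries. The Cast/EiJ libraries were 3.50-fold higher (log2 fold change 1.81 ± 0.14 (SE), adjusted p = 2.1e-05), and Gabra4 rose too (1.15, adjusted p = 0.00022), whereas Gabrr2, of bipolar cell terminals, was lower (-0.52, adjusted p = 0.00051). Glutamate receptors had 5 higher and 3 lower of 25, with Grm8, the presynaptic receptor of photoreceptors, at 396, 392 and 395 in C57BL/6J and 176, 182 and 169 in Cast/EiJ (log2 fold change -1.16 ± 0.09 (SE), adjusted p = 2.3e-05) and Grin2b at -0.77, adjusted p = 0.0077. Of 68 potassium channel genes, 10 were higher and 15 lower. Kcnmb3, a subunit of large-conductance channels, had at most 0.701 in C57BL/6J and 90.1, 140 and 66.3 in Cast/EiJ, which is at least 32.9-fold higher when the C57BL/6J level is set to a floor of 3 (adjusted p = 6.2e-06). 

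Vascular growth genes counted 4 higher and 2 lower of 20. Vegfa, the main growth factor of retinal vessels, had 1450, 730 and 767 count equivalents in the C57BL/6J libraries and 2550, 2280 and 2280 in the Cast/EiJ libraries, and all Cast/EiJ libraries were above all C57BL/6J libraries, of which R1 was the highest (log2 fold change 1.34 ± 0.23 (SE), adjusted p = 0.0021). Egln3, a hydroxylase that oxygen and hypoxia-inducible factors control, was 2.13-fold higher (1.09, adjusted p = 0.0038). The VEGF receptor gene Kdr was higher too, as given with the endothelial genes, but Flt4 (-1.15, adjusted p = 0.00064) and the Norrin receptor Fzd4 (-0.37, adjusted p = 0.033) were lower, and Flt1 did not pass (0.05, adjusted p = 0.79). The unfolded protein response, which answers overload of the endoplasmic reticulum, had 11 higher and 2 lower genes of 31 (median 0.26). Edem1, which clears misfolded glycoproteins, had 242, 239 and 220 in C57BL/6J and 465, 486 and 465 in Cast/EiJ (log2 fold change 1.01 ± 0.09 (SE), adjusted p = 4.4e-05), and Creld2 (0.65, adjusted p = 0.0052), Hsp90b1 (0.38, adjusted p = 0.011) and Xbp1 (0.34, adjusted p = 0.031) rose by less, while Hspa5, its main chaperone, gave 0.47, adjusted p = 0.082 and Edem2 fell (-0.66, adjusted p = 0.0034). Cytosolic chaperones had 6 higher and 3 lower of 31. Lower chaperone genes numbered 0 without C57BL/6J R3 or Cast/EiJ R2. The test was no longer passed for Fzd4 without any 1 library but Cast/EiJ R1 (adjusted p = 0.058 to 0.1) and Xbp1 without any 1 library but C57BL/6J R3 (adjusted p = 0.06 to 0.088).

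Gene families differed in how many of their members changed. Among the families of 20 or more tested genes that share the letters of their symbol, the share that passed was highest for Pcdhb (70% of 20), Sec (61.5% of 26) and Cyp (54.5% of 22) and lowest for Kctd (5% of 20), Pde (14.8% of 27) and Wdr (16.9% of 59), against 32.5% of all members. The clustered protocadherins, cell surface proteins by which single neurons recognize their own branches, counted 14 lower and 1 higher of 23 (median -0.72). Pcdhb9 had 201, 211 and 233 count equivalents in the C57BL/6J libraries and 16.6, 35.7 and 40.9 in the Cast/EiJ libraries, the Cast/EiJ libraries all being lower (log2 fold change -2.84 ± 0.30 (SE), adjusted p = 0.00014), and Pcdhb19 and Pcdhb16 followed (-1.32, adjusted p = 5.8e-05, and -1.06, adjusted p = 0.00032). The only higher one was Pcdhb6 (0.78, adjusted p = 0.0037). In the axon guidance families, semaphorins and plexins had 8 higher and 4 lower of 27, with Sema7a (0.73, adjusted p = 0.00016) and Plxna2 (0.67, adjusted p = 0.00041) up, and ephrins with their receptors had 4 higher and 1 lower of 19. Lower semaphorin and plexin genes numbered 2 without Cast/EiJ R3. Higher ephrin genes numbered 2 without C57BL/6J R1 or R3 or Cast/EiJ R2. 

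Collagens had 8 higher and 9 lower genes of 35, with large changes on both sides. The type IV chains Col4a3 and Col4a4, partners in basement membranes encoded back to back, were 12.4-fold and 10.7-fold lower (-3.63, adjusted p = 6.2e-06, and -3.42, adjusted p = 6.6e-06), whereas Col5a3 was 4.80-fold and Col11a1 2.75-fold higher (2.26, adjusted p = 3.2e-05, and 1.46, adjusted p = 0.0096). Solute carriers were evenly split, with 44 higher and 44 lower of 246, and log2 fold changes of the list ran from -6.425 to 5.32. Among the large changes, Slc29a1, a nucleoside transporter, had 229, 245 and 191 in C57BL/6J and 1650, 1740 and 1280 in Cast/EiJ (log2 fold change 2.80 ± 0.14 (SE), adjusted p = 9e-07) and Slc6a2, the noradrenaline transporter, had at most 7.80 in C57BL/6J and 175, 159 and 157 in Cast/EiJ (log2 fold change 5.32 ± 0.72 (SE), adjusted p = 0.00061). In contrast, Slc17a3, a urate and phosphate transporter, had 124, 111 and 106 in C57BL/6J and 1.84, 0.206 and 5.34 in Cast/EiJ (log2 fold change -5.36 ± 0.53 (SE), adjusted p = 9.4e-05). Of 339 numbered zinc finger genes, 57 were higher and 31 lower, with Zfp141 highest (2.98, adjusted p = 3.4e-06), and without C57BL/6J R2 or Cast/EiJ R2 the higher count was 36 or 35. Histone genes counted 12 higher and 1 lower of 28, a family whose RNAs largely lack poly(A) tails. Of these, 5 rested mostly on reads shared with other genes, and without them 8 were higher and 1 lower of 23. The median was 0.31 with them and 0.13 without them. On single-gene reads, 9 were higher and 3 lower of 24. Rab GTPases counted 5 higher and 9 lower of 56, with Rab11b and Rab6b lower (-1.56, adjusted p = 3.8e-05, and -1.01, adjusted p = 1.5e-05). With 1 library left out, the log2 fold change was 4.30 for Slc6a2 without C57BL/6J R2, -4.75 for Slc17a3 without Cast/EiJ R2 and -5.95 for Slc17a3 without Cast/EiJ R3.

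Against the background of 32.5%, other families ran from low to high shares. Proteasome subunits counted 3 higher and 2 lower of 40, aminoacyl-tRNA synthetases 3 and 4 of 37, mitochondrial ribosomal proteins 7 and 13 of 76, and homeobox genes of the Pax, Lhx and related classes 1 and 3 of 19. Kinesins, the motors of microtubules, counted 4 higher and 8 lower of 30. Tubulins counted 4 and 6 of 14, tripartite motif genes 12 and 8 of 44, and Wnt ligands with Frizzled receptors 5 and 7 of 18, the only crystallin that passed of 8 being Crybg3 (-0.67, adjusted p = 0.00077). Higher synthetase genes numbered 1 without C57BL/6J R2 or Cast/EiJ R1. Lower homeobox genes numbered 1 without C57BL/6J R2. Higher kinesin genes numbered 2 without C57BL/6J R1 or R3 or Cast/EiJ R2 or R3. Lower kinesin genes numbered 4 without C57BL/6J R2 or R3 and 5 without Cast/EiJ R2 or R3. Higher tubulin genes numbered 2 without C57BL/6J R3 or Cast/EiJ R3. Lower tripartite motif genes numbered 5 without C57BL/6J R2 or R3. Higher mitochondrial ribosomal genes numbered 3 without C57BL/6J R2 or Cast/EiJ R3. Lower ones numbered 7 without C57BL/6J R3 and 8 without Cast/EiJ R2. Higher Wnt and Frizzled genes numbered 1 without Cast/EiJ R3, 2 without C57BL/6J R1, R2 or R3 and 3 without Cast/EiJ R1 or R2. Cytosolic ribosomal proteins were higher in none by limma and lower in 22 of 78, but 30 of these genes rested mostly on reads shared with other copies, and without them 13 of 48 were lower. On single-gene reads edgeR and DESeq2 each called 4 of them higher. Higher cytosolic ribosomal genes numbered 1 without C57BL/6J R1, 2 without C57BL/6J R3 or Cast/EiJ R2 and 5 without Cast/EiJ R1. The median of the cytosolic ribosomal proteins turned from -0.11 to 0.0153 without Cast/EiJ R1. Of 18 genes known to carry differences between common mouse strains, 6 were higher and 2 lower, among them Wdfy1 with 292, 269 and 329 in C57BL/6J and 674, 855 and 1000 in Cast/EiJ (log2 fold change 1.49 ± 0.14 (SE), adjusted p = 8.5e-05) and Glo1, glyoxalase, with 0.60, adjusted p = 0.001. 

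By fold, taking genes that averaged 100 count equivalents or more over the libraries and had the same call on single-gene reads, the 12 highest in Cast/EiJ were Gm5506, Gm8910, Gm10116, Gm10119, Gm10068, Gm5619, Gm1840, Gm8730, Gm4737, Amd2, Gm7353 and Rpsa-ps10. In RefSeq (GRCm38.p6), 9 of these 12 are annotated as pseudogenes, although the Ensembl release behind the files lists them as protein coding. Over all members that matched RefSeq by symbol, 0.814% were such pseudogenes, as against 51 of 174 genes at least 4-fold higher (29.3%) and 9 of 228 at least 4-fold lower (3.95%). The 12 lowest were Srp54c, 2810405K02Rik, Gapdh, Gm14305, Ftl1, Zan, Fmo1, Dnahc9, Rpl21, Pttg1, Hba-a2 and Gm14296, none of which RefSeq lists as a pseudogene.

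Several of the highest genes were copies of genes that were low. Gapdh, the glycolytic enzyme, had 41100, 50800 and 50500 count equivalents in the C57BL/6J libraries and 261, 355 and 291 in the Cast/EiJ libraries. Gm12671, its copy, which is not a member, had means of 372 and 50767. The 2 together came to 47839 in C57BL/6J and 51069 in Cast/EiJ, and 95.6% of the 31-base words of the copy occur in Gapdh transcripts. Eno1, alpha enolase, went from a mean of 31067 to 2640 where Gm5506 went from 1.75 to 16400, but their sum was lower in Cast/EiJ (31068 and 19040), and 49.9% of the words of Gm5506 occur in Eno1 transcripts. Ftl1, ferritin light chain, went from 1887 to 15.4 where Gm10116 went from 0.223 to 1217, with sums of 1887 and 1232 and 86% of words shared. The values of such genes are uncertain, since reads could be assigned to either copy. Genes whose reads were mostly shared, that is with single-gene reads per count equivalent under 0.5 of the strain's median, numbered 410 of 13310 members but 91 of 423 genes (21.5%) that differed at least 4-fold. Without these 410 genes, 4135 of 12900 (32.05%) passed.

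A second list, whose threshold on single-gene reads (0.8 of the strain's median in both strains) was chosen after values had been seen, gave genes that rested mostly on single-gene reads. Its 12 highest were Gm1840, Gm8730, Atp4b, Trim43b, Gk5, Tas1r1, Rtkn2, Rdh1, Bst1, Plekhg1, Apitd1 and Gstm7, and its 12 lowest 2810405K02Rik, Zan, Spata1, Glp2r, Pon2, 5430419D17Rik, H2-D1, Irf7, Gzmm, Dhdh, H2-K1 and Gm4792. Of the 12 highest, Gm1840 and Gm8730 are annotated as pseudogenes in RefSeq, and 59.7% of the words of Gm1840 occur in transcripts of Gpi1. Atp4b, the beta subunit of the gastric proton pump, which the retina also makes, had 5.53, 2.87 and 2.01 count equivalents in the C57BL/6J libraries and 1000, 719 and 663 in the Cast/EiJ libraries. It was 185-fold higher in Cast/EiJ (log2 fold change 7.53 ± 0.30 (SE), adjusted p = 2.7e-07). Rdh1, a retinol dehydrogenase, had 6.43, 9.06 and 12.1 in C57BL/6J and 178, 216 and 216 in Cast/EiJ (log2 fold change 4.36 ± 0.24 (SE), adjusted p = 2.3e-06), and Bst1, an ectoenzyme that hydrolyses NAD, had 77.9, 63.8 and 65.8 in C57BL/6J and 731, 731 and 695 in Cast/EiJ (log2 fold change 3.36 ± 0.11 (SE), adjusted p = 1.1e-07). On the other side, Pon2, a paraoxonase of mitochondria and the endoplasmic reticulum, had 263, 259 and 313 count equivalents in the C57BL/6J libraries and 18.5, 21.4 and 17.7 in the Cast/EiJ libraries, a 13.8-fold difference (log2 fold change -3.79 ± 0.16 (SE), adjusted p = 4.3e-07). Glp2r, the receptor of glucagon-like peptide 2, had 3070, 2620 and 1990 in C57BL/6J and 224, 134 and 137 in Cast/EiJ (log2 fold change -3.97 ± 0.21 (SE), adjusted p = 1.8e-06), and Gzmm, a granzyme, had 275, 338 and 305 in C57BL/6J and 37.2, 28.6 and 29.4 in Cast/EiJ (log2 fold change -3.23 ± 0.16 (SE), adjusted p = 1e-06). In each of these genes all libraries of one strain lay apart from all of the other. 

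Along the chromosomes (NCBI37/mm9), the share of members that passed ran from 28.4% on chromosome 7 to 36.95% on chromosome 14. The longest run of neighbouring tested genes lower in Cast/EiJ was the 8 protocadherin genes from Pcdhb14 to Pcdhb22, chr18:37607311-37681073. Within it, Pcdhb21 lost its call without C57BL/6J R2 (adjusted p = 0.059) and Pcdhb22, at its end, without C57BL/6J R2 or R3 or Cast/EiJ R1 or R2 (adjusted p = 0.063 to 0.099). The longest runs of higher genes held 7 annotated genes each. One was the zinc finger genes of chr2:177171829-177660318, from Gm14418 to C330013J21Rik, and the other was chr9:88475729-89135064, which holds Trim43a, Trim43b, Trim43c and the folate enzyme gene Mthfs. In the latter, Gm2382 lost its call without C57BL/6J R3 or Cast/EiJ R2 or R3 (adjusted p = 0.068 to 0.076).

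**Figure D5:**
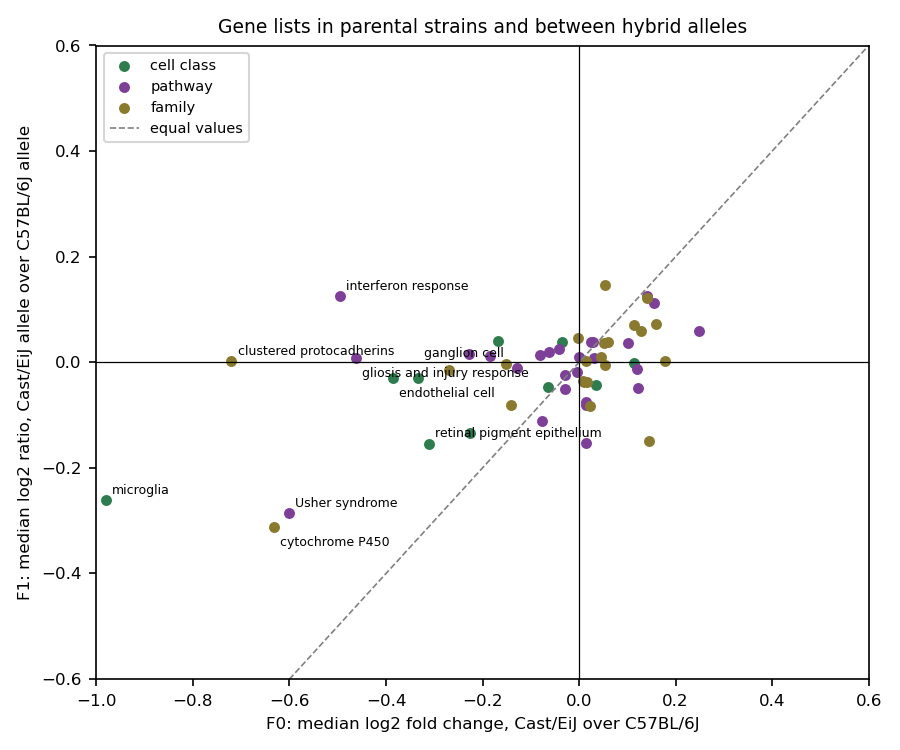
Median log2 Cast/EiJ over C57BL/6J of each gene list with 10 or more genes measured in the hybrids, with the difference between F0 strains on the horizontal axis and the ratio between alleles in the 6 F1 libraries on the vertical axis, over the same genes. Each point is 1 list, coloured by kind, and the dashed line marks equal values. The ganglion cell, endothelial and clustered protocadherin lists have F0 medians well under 0 and lie near 0 on the allele axis, while microglial, Usher syndrome and cytochrome P450 lists lie under 0 on both.

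In the F1 retinas the alleles of both strains share 1 set of cells, so their ratio was set beside the F0 difference, as a description without a test. It was taken over members with at least 10 allele-specific single-gene reads per library, both alleles added, on average over the 6 F1 libraries. This left 12303 genes, and no minimum was set for a single library or allele. Of 3998 genes that differed between the F0 strains, 87.9% had the same sign in the F1 alleles, and so had 93.9% of those at least 2-fold apart and 62.8% of the genes that had not passed. Among list genes that had passed, the sign was the same in 15 of 18 interferon response, 13 of 15 ganglion cell and 11 of 12 endothelial genes. It was the same in 7 of 8 microglial, 11 of 11 cytochrome P450 and 9 of 15 clustered protocadherin genes. Medians were taken over all genes with an allele ratio, passed or not. Interferon response genes had a median of -0.50 between F0 strains and 0.12 between alleles, ganglion cell genes -0.33 and -0.03, endothelial genes -0.39 and -0.03, and clustered protocadherins -0.72 and 0.0021. Microglial genes had -0.98 and -0.26, and cytochrome P450 genes -0.63 and -0.31.

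Single genes showed both patterns. For Sag the log2 ratio of alleles was 0.92 ± 0.06 (mean ± SD, n = 6 F1 libraries), beside 1.18 between F0 strains, and for Gngt1 it was 0.88 ± 0.08 beside 1.04. Retsat had 1.18 ± 0.13 beside 2.08, Mt1 -1.60 ± 0.11 beside -1.64, Cabp5 1.46 ± 0.06 beside 1.34, and Myo7a -4.74 ± 0.25 beside -4.70. In these genes the alleles differed in the direction of the strains. In other genes the ratio was small beside the F0 difference: Nefh had -0.03 ± 0.08 beside -0.90, Thy1 -0.27 ± 0.08 beside -0.73 and Egr1 -0.02 ± 0.18 beside -1.46. For Vegfa the spread between F1 libraries exceeded the ratio (0.06 ± 0.69 beside 1.34). These side-by-side values were not tested against each other, and the F1 libraries were quantified on a reference that joins both strains.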

How the data were processed

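Retinal RNA of 3 F0 C57BL/6J and 3 F0 Cast/EiJ libraries was compared, with groups and library numbers from the labels. The authors trimmed the paired 101-bp reads with Trim Galore 0.2.6, aligned them with Bowtie 0.12.9 to transcriptomes of each strain (Ensembl release 67, NCBI build 37/mm9) or, for 6 F1 libraries, of both, and estimated expression with MMSEQ 1.0.0 beta. The deposited count equivalents are an expression signal, read counts estimated by MMSEQ that the authors normalized between libraries. The deposited natural log expression values, exponentiated, are roughly FPKM. The deposited unique hits are raw counts of read pairs assigned to 1 gene. The authors' columns of model probabilities were not used.

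limma 3.58.1 (R 4.3.3) was fitted, with a variance trend, to log2(count equivalents + 1) over the 14452 autosomal genes that reached 10 count equivalents in 3 libraries or more, with Benjamini-Hochberg adjustment and a threshold of 0.05. The authors' own test was for counts, whereas these values are not counts, so edgeR 4.0.16 and DESeq2 1.42.0 served as alternatives on unique hits. Tables and plots used Python 3.11.15 with numpy 2.4.6, pandas 2.3.3 and matplotlib 3.10.9. On data simulated for this comparison over 14452 genes, limma called 48% of 1.5-fold and 79% of 2-fold changes. Only 100 genes were changed by each fold there, whereas 33.8% of the 14452 genes passed in the data. The share called under this adjustment depends on how many genes differ, so these rates need not hold for the data. With 3 libraries a strain, smaller changes could be missed. The members and the gene lists were chosen with earlier results of these data known. Genes named are the defining cell class genes, up to 4 called genes of each list with the largest changes and an average of 50 count equivalents or more, members of lists with few calls, the 12 largest changes each way, families by symbol and the longest runs. Genes named beside these, as examples of a role, were chosen after their values were seen. FPKM was used where the levels of Gnat1 and Rpe65 were set side by side. The 4 expression groups and the sums over genes used count equivalents, which also depend on gene length. Mice came as pools and all F0 libraries shared 1 sequencing lane. Some genes of the lists are not reported here by name.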

Additional observations from a re-analysis of the deposited data

How the results depend on the processing

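The count of 4322 genes stayed within 1.5 times under 17 of 19 other settings, and under an added one. It was 2637 (1268 higher and 1369 lower) with no filter on low values, where 21422 genes entered the adjustment, and 2357 (1085 higher and 1272 lower) at an adjusted p of 0.01. On unique hits edgeR called 4714 and DESeq2 3954 genes. Without 1 library the count ran from 3034 to 4070, with 1489 to 2119 higher and 1545 to 1951 lower. A fit with the replicate number as a block called 5754 genes (3145 higher and 2609 lower). The deviations of same-numbered libraries correlated at 0.326, 0.03 and 0.137. The first of these was the highest of all pairs between strains, while C57BL/6J R2 correlated best with Cast/EiJ R3 (0.173). These values do not settle whether the numbers pair the samples. The share of higher genes among those called was 46.0% to 54.7% over these settings, against 51.6%. Leaving out the 410 genes mostly of shared reads, added after the data were seen, left 4135.

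Of 230 named genes that passed, 229 kept their direction under every setting and 159 also stayed past the threshold. The log2 fold change of Ift46 turned from -0.63 to 0.0245 by limma on deposited log expression. The log2 fold change of Pde6h turned from -0.14 to 0.924 by limma on deposited log expression. The cause was not tested. Counts of lists moved more than the total. Interferon response genes that were lower numbered 12 by limma on the deposited log expression, and 10 without C57BL/6J R2. By edgeR on unique hits, 84 of 88 list counts of 3 or more genes stayed within 1.5 times. Of 48 list counts under 3, those other than the higher cytosolic ribosomal genes moved by at most 2 genes without 1 library. With 3 pools a strain, low genes such as the microglial and interferon ones rest on few reads, and p-values measure the spread between pools.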
